A study of Macaca mulatta with 449 samples.

Results

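The LIM homeobox genes described here are LHX1, LHX2, LHX4, LHX5, LHX6, LHX8, LHX9, ISL1, LMX1A and LMX1B, chosen by symbol. A total of 8 of these 10 had a row among the 30807 genes of the count table. LHX4 and LHX5 had none and are not analysed here. RNA depleted of ribosomal RNA was sequenced from 51 sub-regions of the brain and the pituitary of 8 rhesus macaques at 1 sample per sub-region and animal, and every such sample was analysed. Males and females numbered 4 each. In each sex 2 animals were young (3.2 to 5 years over both sexes) and 2 were mid-aged (9.8 to 10 years). No animal is described as treated or genetically altered, and the comparisons are between tissues of the same animals.

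Sub-regions were gathered into 16 region groups. The cortex group summed 31 cortical sub-regions of each animal. The striatum (STR) summed accumbens nucleus (ACb), caudate nucleus (CN) and putamen (PUT), the hippocampus (HIP) summed CA1, CA3 and dentate gyrus (DG), and the cerebellum (CB) summed cerebellar cortex (CBC) and vermis (CBV). The other 12 groups were single sub-regions, namely the entorhinal and perirhinal cortex (PA), olfactory bulb (OB), amygdala (AMY), globus pallidus (GP), thalamus (THA), hypothalamus (HTHA), substantia nigra (SN), ventral tegmental area (VTA), pons (PON), medulla oblongata (MO), corpus callosum (CC) and pituitary (PIT). Levels are counts scaled to the library size (CPM), which compare 1 gene between samples and not 1 gene with another, since gene length is not taken into account.

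LIM homeobox proteins are transcription factors with a pair of LIM zinc finger domains and a DNA-binding homeodomain. Their LIM domains bind the adaptor LDB1 or LDB2, which joins them into larger complexes, while the LMO proteins have LIM domains without a homeodomain and compete for the same adaptor. In the developing brain these factors set the identity of neurons, and many stay on in the mature cells, so that members are known as markers of Purkinje cells, cortical interneurons, striatal neurons, thalamic neurons or dopamine neurons.

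The total count per sample was 7784678 to 31083490, with a median of 10698602. At this depth 3 counts in a library came to about 0.25 to 0.31 CPM in the region groups of a single sub-region. In the summed libraries of an animal, 3 counts came to 0.097 CPM in HIP, 0.1 CPM in STR, 0.128 CPM in CB and 0.0089 CPM in cortex. A group in which every library, or every such sum, had at most 3 counts is called at the floor. The labels of the tissues were compared with marker lists, as medians over 8 animals of the summed CPM of each list. The dopamine neuron list was highest in SN (2614 CPM, against 242 CPM in VTA), the medium spiny neuron list in STR (5193 CPM), the Purkinje cell list in CB (3045 CPM), the anterior pituitary list in PIT (46544 CPM) and the hypothalamus list in HTHA (892 CPM). The thalamic neuron list was highest in THA (299.6 CPM), the cortical excitatory neuron list in HIP (1848 CPM), the GABA interneuron list in OB (1623 CPM), the oligodendrocyte list in CC (100099 CPM), the choroid plexus list in PIT (43.8 CPM) and the cholinergic neuron list in STR (13.6 CPM). The median of the habenula list was at most 2.54 CPM in any group. Single libraries were higher, as it ranged from 0.964 to 40.8 CPM in MO and from 0 to 9.53 CPM in THA. The serotonin neuron list was highest in VTA and ranged from 0 to 338.9 CPM over the 8 VTA libraries. The HTHA library of Rhesus 6 had 653.5 CPM of the cortical excitatory neuron list, against 11.9 to 18.7 CPM in the other 7, and the HTHA means of the members without it are given below.

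All 8 genes differed over the 16 region groups by edgeR's quasi-likelihood F test with the animal as a block (FDR < 0.05), as did 99.7% of all genes tested. They passed the same test in 644 of their 960 pairs of region groups (of these, 5 pairs had both groups at the floor, all for LMX1B), and the share over all genes and pairs was 61.6%. A gene was called for a region group when it also stood more than 2-fold above every other group. This rule called 3 of the 8, LHX1 for CB, LHX9 for THA and LMX1B for SN, where 11.5% of all genes were called. The other 5 were called for none, as the group of highest mean stood less than 2-fold above the next (log2FC 0.18 for ISL1 to 0.88 for LMX1A). In these 5 the group of highest mean also did not pass the test against the groups next to it. For LHX2 this was PA, against AMY, HIP and cortex, and for LHX6 it was cortex, against STR, PA and AMY. For LHX8 it was STR against GP, for ISL1 HTHA against STR and PIT, and for LMX1A PIT against SN. Such levels need not be equal, as each PA library was above all those of HIP and cortex in LHX2.

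**Figure D1:**
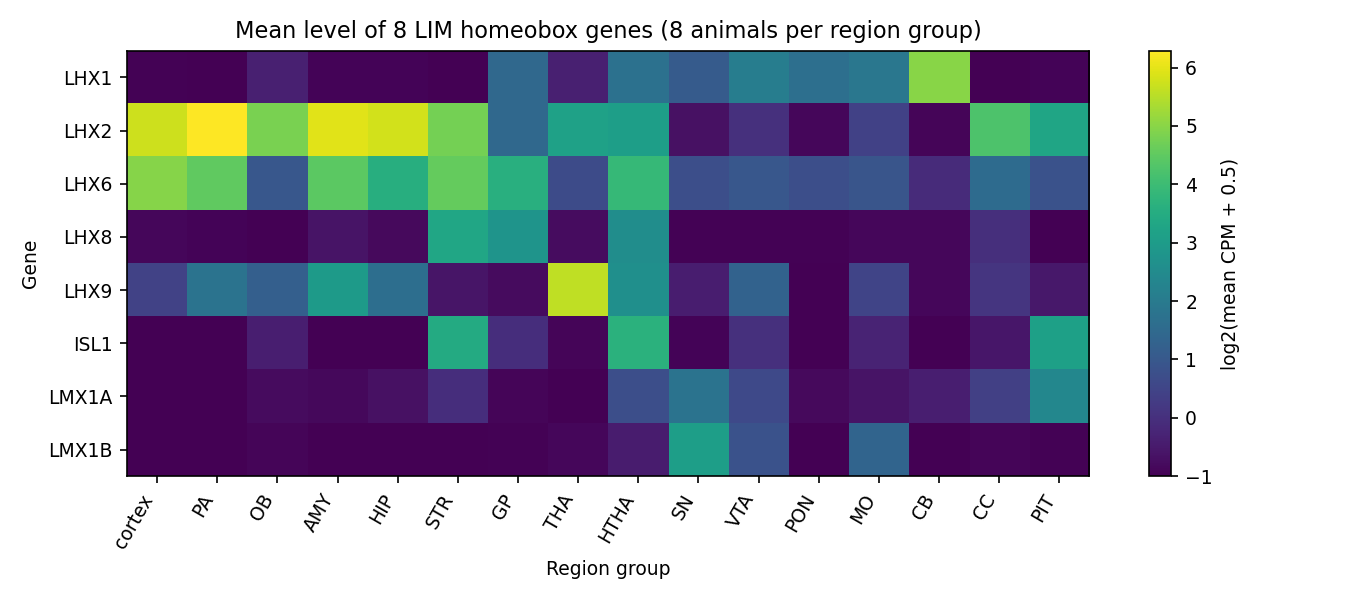
Mean level of the 8 genes with a row in the 16 region groups, as log2(mean CPM + 0.5) over 8 animals, with genes as rows and region groups as columns. LHX1 is brightest in CB, LHX9 in THA and LMX1B in SN, whereas LHX2 and LHX6 are bright over several telencephalic groups.

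LHX6 had a mean of at least 1 CPM in 15 of 16 groups and LHX2 in 11. LHX1 and LHX9 reached that level in 7 groups each, LMX1A in 4, and ISL1, LHX8 and LMX1B in 3 each. Conversely LMX1B was at the floor in 12 groups, LHX8 in 8, ISL1 in 7, LHX1 in 6, LMX1A in 5, and LHX2 and LHX9 in 2 each. LHX6 was at the floor in none of the 16. In bulk tissue, fewer cells of a type and less RNA per cell cannot be told apart.

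LHX1 is known for its part in Purkinje cell differentiation. In CB it ranged from 20.2 to 36.9 CPM with a median of 31.3 CPM over 8 animals. The next group, VTA, ranged from 2.93 to 4.87 CPM with a median of 3.75 CPM. The 8 CB values did not overlap those of any other group, the nearest being 10.6 CPM in the MO library of Rhesus 4. CB stood above VTA by a log2 fold change (log2FC) of 3.08 (SE 0.32, FDR = 2.89e-15), a mean of 31.04 ± 4.93 CPM against 3.73 ± 0.654 CPM (SD, n = 8). Rhesus 4 was the lowest in CB.

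Below CB, LHX1 had a second tier in VTA, MO, HTHA, PON, GP and SN, where means ran from 3.73 down to 1.65 CPM. No neighbours in this order differed (FDR from 0.254 to 0.931), although its ends did (log2FC of SN over VTA −1.21, SE 0.34, FDR = 0.00454). SN stood above the next group, THA, by a log2FC of 2.52 (SE 0.47, FDR = 3.92e-06). No read of LHX1 was counted in any of the 8 animals in STR or PA. GP and STR, which lie side by side, thus differed: GP ranged from 0 to 4.16 CPM with a median of 2.42 CPM. Its mean was at least 22.5-fold that of STR, taking STR at 3 counts in the summed striatal libraries of each animal (0.1 CPM). A total of 7 of 8 GP libraries had counts, and that of Rhesus 3 had none.

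LHX9 marks thalamic neurons, among other diencephalic populations. In THA it ranged from 24.3 to 58.5 CPM with a median of 49.6 CPM, and in AMY, the second group, from 3.57 to 15.4 CPM with a median of 5.78 CPM. The THA values did not overlap those of any other group, although the THA library of Rhesus 8 (24.3 CPM) lay well below the other 7, which were at 45.9 CPM or more. The difference between THA and AMY was a log2FC of 2.72 (SE 0.36, FDR = 1.15e-10).

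After THA, LHX9 was highest in AMY and HTHA, which did not differ (FDR = 0.402), and HTHA was above PA (log2FC 0.95, FDR = 0.0295). PA, HIP, VTA and OB followed at means of 2.94 to 1.80 CPM with no difference between neighbours (FDR from 0.269 to 0.906). LHX9 was not counted in any PON library and was at the floor in CB. In AMY and PA, adjacent parts of the medial temporal lobe, both groups were at the floor for 4 of the 8 genes, and PA was for LHX8. Of the others, LHX2, LHX6 and LHX9, LHX9 alone was called. AMY was higher (log2FC 1.32, SE 0.38, FDR = 0.00985), although its range overlapped the 1.07 to 5.15 CPM (median 2.79 CPM) of PA. Without Rhesus 10, which had 15.4 CPM in AMY, the log2FC was 0.98 (FDR = 0.111). Over all genes 3.95% were called between AMY and PA.

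LMX1A and LMX1B act together in the specification of midbrain dopamine neurons, and LMX1B also in that of serotonin neurons. SN and VTA are the main sites of dopamine neurons in the midbrain. LMX1B ranged from 4.00 to 11.5 CPM in SN with a median of 6.82 CPM. In VTA it ranged from 0.235 to 2.58 CPM with a median of 1.13 CPM, so the groups did not overlap. SN was higher by a log2FC of 2.67 (SE 0.40, FDR = 8.08e-08), and in 8 of 8 animals.

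LMX1A ranged from 0.216 to 9.33 CPM in SN (median 2.64 CPM) and from 0.0918 to 2.70 CPM in VTA (median 0.927 CPM). These ranges overlapped, and SN was the higher in 5 of 8 animals. The log2FC was 1.34 (SE 0.53, FDR = 0.0451). The SN library of Rhesus 8 had 9.33 CPM, and the other 7 at most 3.76 CPM. Without Rhesus 8 the log2FC was 0.77 (FDR = 0.332), and leaving out Rhesus 6, Rhesus 7, Rhesus 10 or Rhesus 11, testing with DESeq2 (FDR = 0.153) or using the detection rule of the study as the filter (FDR = 0.0655) also ended the call.

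Other members were higher in VTA. LHX1 ranged from 0.63 to 2.64 CPM in SN (median 1.64 CPM) and was higher in VTA in all 8 animals, with no overlap (log2FC of SN over VTA −1.21, SE 0.34, FDR = 0.00454). LHX9 was lower in SN by a log2FC of −2.82 (SE 0.58, FDR = 6.01e-05), or of −1.96 without Rhesus 7 (FDR = 0.0142). Its VTA values ranged from 0 to 8.56 CPM with a median of 1.33 CPM, and the highest was that of Rhesus 7, whose VTA library also had the highest sum of the cholinergic neuron list (53.8 CPM, against 0.117 to 49.6 CPM in the others). The part of those cells in the result was not tested. ISL1 was at the floor in SN and had 0 to 29 counts in VTA, so that its VTA mean was at least 1.80-fold the floor of 3 counts per library in SN. The 29 counts were those of Rhesus 8, and without that animal the VTA mean (0.251 CPM) lay below the floor, while the test was still passed (FDR = 0.00665). In all, 5 of 8 members were called between SN and VTA, 2 higher in SN and 3 in VTA, where 5.91% of all genes were called.

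The summed dopamine neuron list was 1579 to 3698 CPM in SN and 63.9 to 573.1 CPM in VTA, so LMX1B and the list moved the same way between both tissues. Outside the midbrain, LMX1B was counted above the floor in MO and HTHA alone. In MO it ranged from 0.0815 to 11.0 CPM with a median of 0.503 CPM. The highest value was that of Rhesus 4, inside the range of SN, while the other 7 had at most 2.23 CPM. The serotonin neuron list in that MO library was 0.37 CPM, the lowest of the 8 (up to 97.1 CPM), and its LHX1 (10.6 CPM) was also the highest of the 8.

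LMX1A, by contrast, was highest in PIT, at 0.731 to 7.64 CPM with a median of 5.00 CPM. PIT and SN did not differ (log2FC 0.88, SE 0.47, FDR = 0.0778), while PIT was above VTA by 2.22 (SE 0.51, FDR = 5.72e-05). In CC, LMX1A was counted in 7 of 8 animals, up to 2.62 CPM in Rhesus 10. The choroid plexus list summed to 208.8 CPM in that library and to 19.5 to 53.4 CPM in the other 7, and its part in the LMX1A value was not tested. LMX1A had no count in THA or PA.

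**Figure D2:**
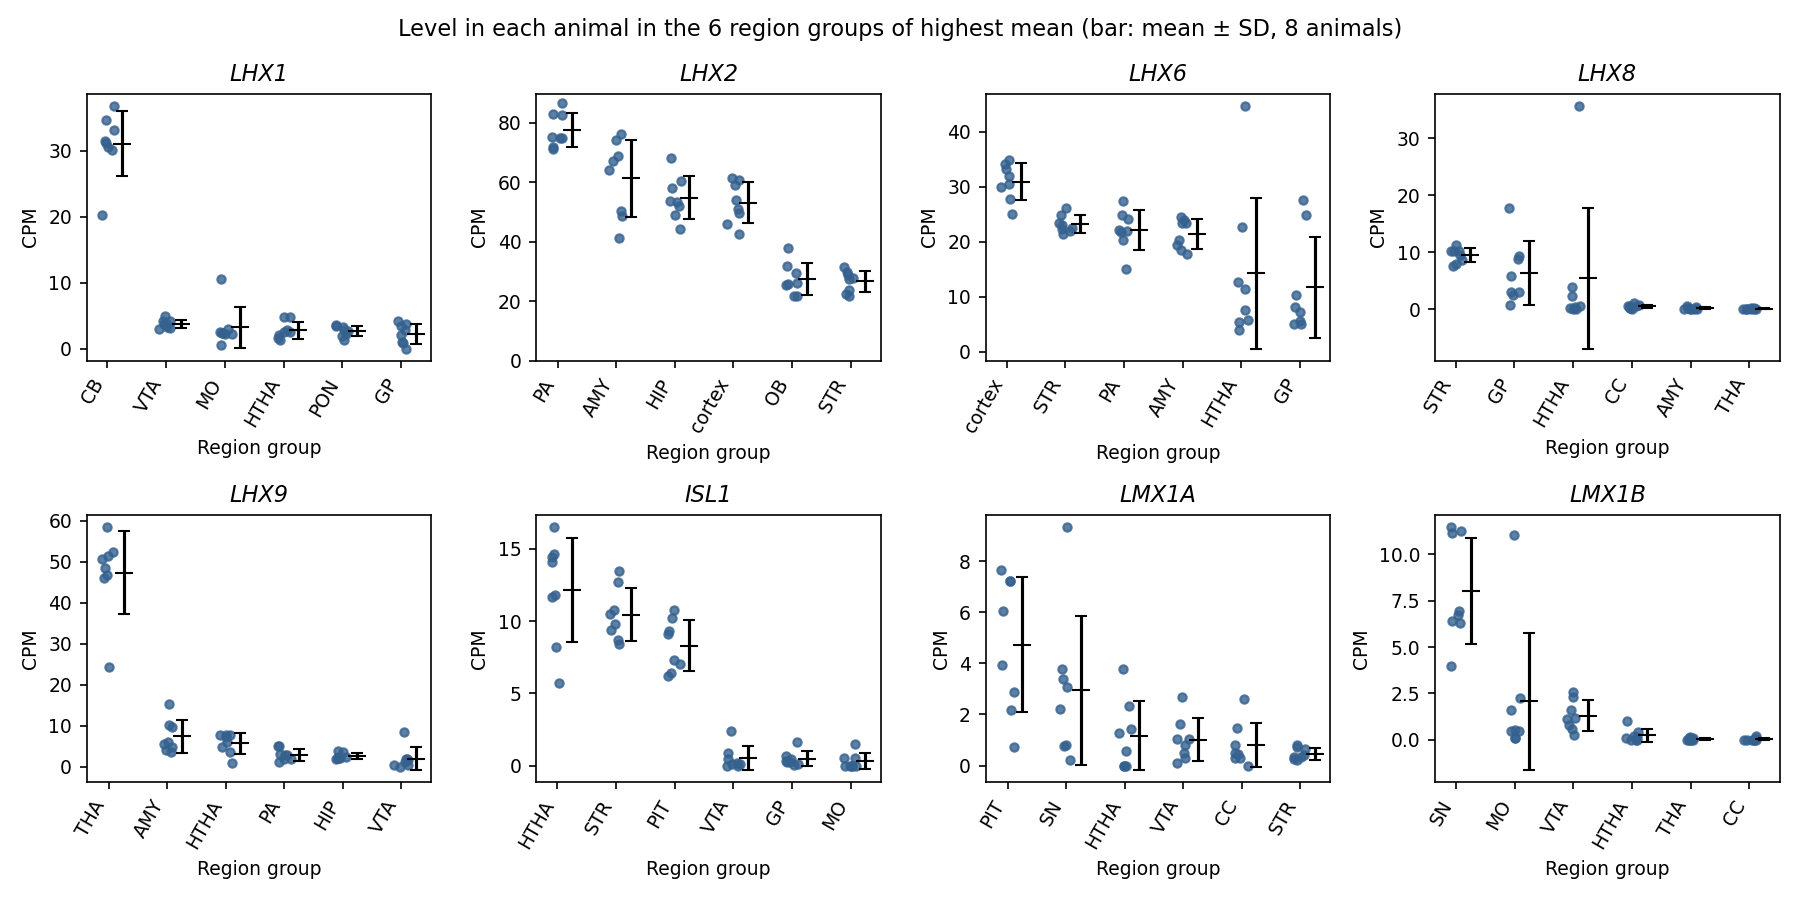
CPM of each of the 8 genes (y axis) in the 6 region groups of highest mean (x axis), with 1 point per animal and the mean ± SD beside them. The CB values of LHX1 and the THA values of LHX9 lie above all others, while single animals stand apart for LHX8 and LHX6 in HTHA and for LHX1 and LMX1B in MO.

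ISL1 is known from striatal projection neurons, cholinergic neurons and pituitary cells. It ranged from 5.70 to 16.5 CPM in HTHA (median 12.9 CPM), from 8.41 to 13.4 CPM in STR (median 10.1 CPM) and from 6.19 to 10.7 CPM in PIT (median 8.22 CPM). These 3 groups overlapped and did not differ from their neighbour in the order (FDR = 0.699 for HTHA over STR, 0.389 for STR over PIT). Below them was a gap, PIT standing above VTA by a log2FC of 4.08 (SE 0.45, FDR = 4.45e-13). ISL1 had no count in any library of PA, AMY, HIP, PON or CB.

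LHX8, which takes part in the specification of forebrain cholinergic neurons, ranged from 7.64 to 11.2 CPM in STR with a median of 9.87 CPM. In GP it ranged from 0.654 to 17.8 CPM with a median of 4.43 CPM. STR and GP overlapped and were not called (log2FC of GP over STR −0.72, SE 0.41, FDR = 0.115). Without Rhesus 4 the log2FC was −1.23 (FDR = 0.01), past the call. The spread was unequal, 1.24 CPM (SD, n = 8) in STR against 5.55 CPM in GP. The third group was HTHA, which is described below, and LHX8 was at the floor in 8 groups, with no count at all in OB.

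LHX6 is required for the interneurons that arise in the medial ganglionic eminence. GP ranged from 4.95 to 27.6 CPM with a median of 7.64 CPM, and STR from 21.5 to 26.2 CPM with a median of 22.8 CPM. STR was higher in 6 of 8 animals, and GP was higher in Rhesus 3 and Rhesus 4. The log2FC of GP over STR was −1.02 (SE 0.24, FDR = 0.00013), just past the 2-fold threshold. Without any 1 of Rhesus 2, 6, 7, 8, 10 or 11, or without the animal block, the fold lay below 2 (log2FC −0.90 to −0.999) with FDR at most 0.00202. In Rhesus 3 and Rhesus 4 LHX8 was also at its highest in GP (9.40 and 17.8 CPM).

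ISL1 and LHX2 separated GP from STR without overlap. ISL1 was at 0.0803 to 1.66 CPM in GP (log2FC −4.51, SE 0.45, FDR = 1.58e-14, or −5.10 without Rhesus 3), and LHX2 at 1.04 to 6.08 CPM (log2FC −3.64, SE 0.43, FDR = 9.93e-13). The highest GP value of both was that of Rhesus 3, whose medium spiny neuron list summed to 878.2 CPM, against 217.6 to 279 CPM in the other 7 GP libraries and 5193 CPM as the median in STR. The part of such cells in these values was not tested. LMX1A was also lower in GP (log2FC −3.06, SE 0.92, FDR = 0.00247), at a mean of 0.0373 CPM against 0.466 CPM in STR. The GP libraries held 5 counts of it, 4 of them in Rhesus 11. Without Rhesus 11 the log2FC of −4.71 rests on 1 count in GP, so its size cannot be read. With LMX1A and LHX1, 5 of 8 members were called between GP and STR, 1 higher in GP and 4 in STR, where 29.6% of all genes were called.

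**Figure D3:**
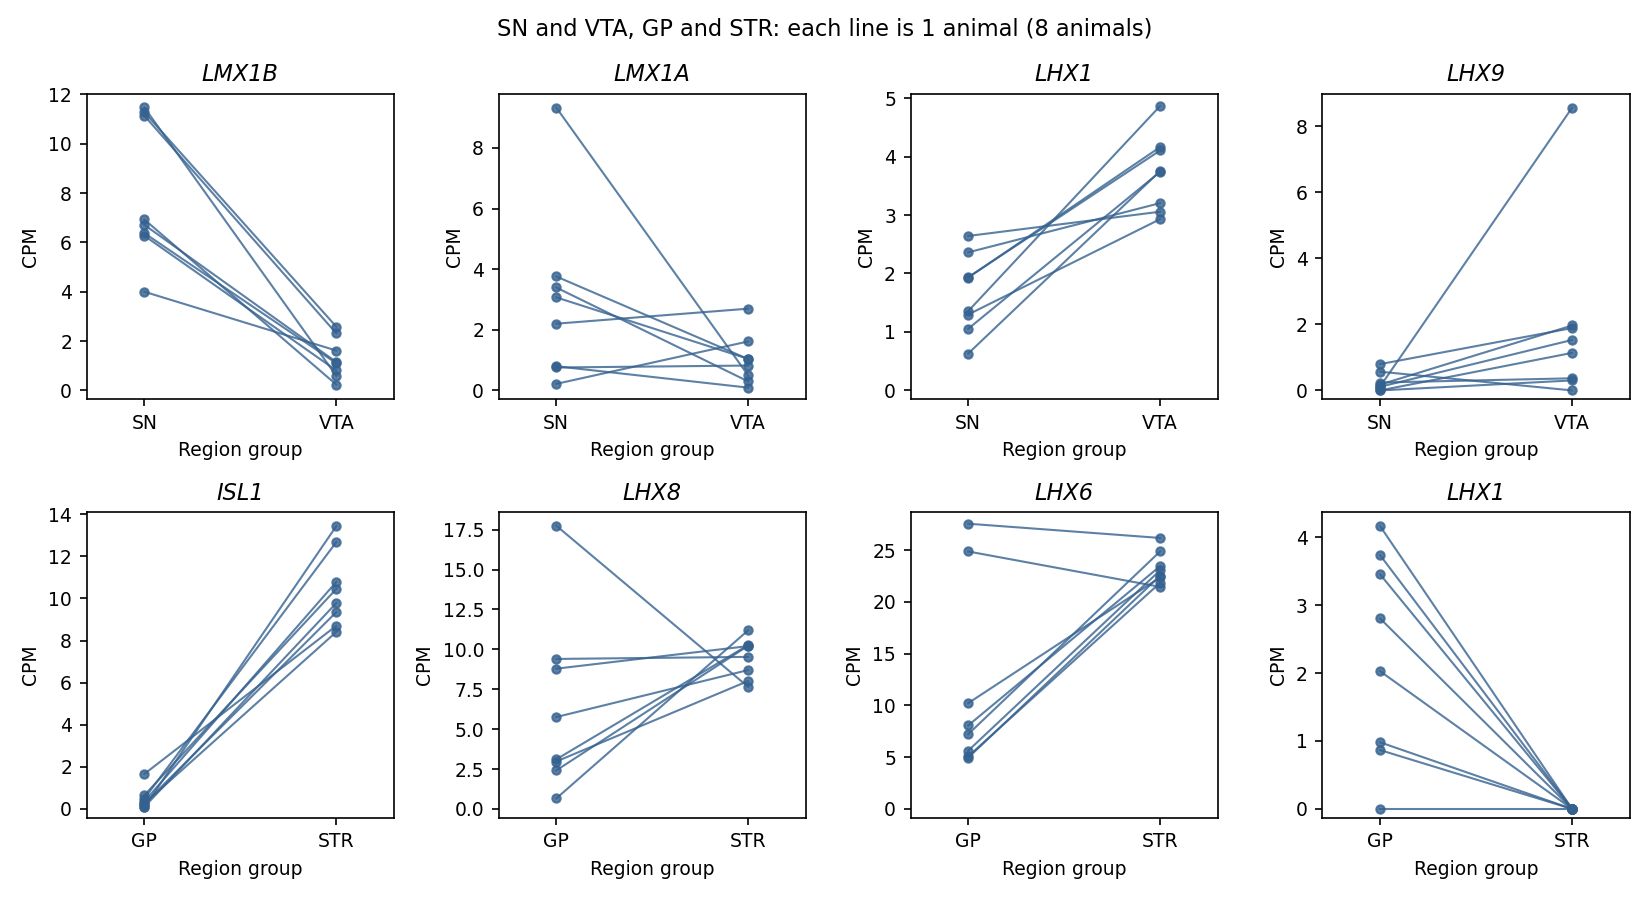
CPM (y axis) of 4 genes in SN and VTA and of 4 genes in GP and STR, each line joining the values of 1 of the 8 animals. LMX1B falls from SN to VTA and LHX1 rises in every animal, and LHX1 is counted in 7 of 8 GP libraries and in none of STR.

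LHX2 sustains cortical and hippocampal progenitors during development. It ranged from 71.1 to 86.7 CPM in PA (median 75.2 CPM), from 41.3 to 76.4 CPM in AMY (median 65.7 CPM), from 44.4 to 68.3 CPM in HIP (median 53.5 CPM) and from 42.7 to 61.3 CPM in cortex (median 52.6 CPM). PA overlapped AMY alone among these, but was not above HIP or cortex by the test (FDR = 0.271 and 0.218). Cortex was above OB (log2FC 0.95, SE 0.35, FDR = 0.0149), and OB and STR did not differ (FDR = 0.931). LHX2 was at the floor in PON and CB.

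CC, a white matter tract, had 12.1 to 23.5 CPM of LHX2 with a median of 20.0 CPM, below cortex by a log2FC of −1.52 (SE 0.36, FDR = 8.76e-05). THA had 5.34 to 12.6 CPM with a median of 8.80 CPM.

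In PIT, LHX2 varied more between animals (SD 15.3 CPM) than in any other group, from 0 to 42.5 CPM with a median of 1.85 CPM. Rhesus 8 (42.5 CPM) and Rhesus 3 (21.7 CPM) were the highest, followed by Rhesus 7 (5.20 CPM) and Rhesus 10 (3.17 CPM), while the others had at most 0.543 CPM. OXT, which encodes the hypothalamic hormone oxytocin, was at 24.2 CPM in the PIT library of Rhesus 8, 6.46 CPM in that of Rhesus 3, 2.54 CPM in that of Rhesus 7 and at most 1.45 CPM in the others. The anterior pituitary list summed to 32266 and 44313 CPM in Rhesus 8 and Rhesus 3, and to 30252 to 350917 CPM over the 8. What sets the LHX2 level in these libraries was not tested.

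LHX6 had its highest means in cortex, STR, PA and AMY. It ranged from 25.1 to 34.9 CPM in cortex with a median of 31.3 CPM. The next groups were STR (log2FC of cortex over STR 0.41, SE 0.23, FDR = 0.127), PA (0.49, SE 0.24, FDR = 0.0955) and AMY (0.53, SE 0.24, FDR = 0.0675). None passed the test against cortex, although each was below cortex in every animal. AMY, at 17.8 to 24.5 CPM, did not overlap cortex. HIP was lower, at 8.90 to 13.9 CPM with a median of 11.9 CPM, without overlap with cortex (log2FC −1.43, SE 0.24, FDR = 2.24e-07). CB was the lowest of all, with a mean of 0.425 ± 0.19 CPM (SD, n = 8).

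OB departed from cortex in LHX6, LHX9, ISL1, LMX1A and LHX1. LHX6 was at 0.657 to 2.27 CPM (median 1.70 CPM) in OB, lower than in cortex by a log2FC of −4.37 (SE 0.29, FDR = 2.07e-26). LHX9 was higher in OB, at 0.777 to 3.24 CPM with a median of 1.25 CPM (log2FC 1.02, SE 0.38, FDR = 0.0158), a call that was lost without Rhesus 3, Rhesus 7 or Rhesus 8 (log2FC 0.74 to 0.90, FDR = 0.0543 to 0.101), and with the detection rule of the study as the filter (log2FC 0.90, FDR = 0.0394). The higher levels of LHX1, ISL1 and LMX1A in OB were all below a mean of 0.3 CPM. They rest on at most 10 counts in a library for LHX1 and ISL1 and on at most 3 for LMX1A. OB was thus itself at the floor for LMX1A, and cortex held 6 counts of it in all. Apart from LMX1B, where both groups were at the floor, 5 of 8 members were called between OB and cortex. Of these, 4 were higher in OB, LMX1A included, and 1 in cortex, where 22.5% of all genes were called.

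HIP and cortex were told apart by 3 of 8 members, while 12.4% of all genes were called. Besides LHX6, LHX9 was higher in HIP, at 1.99 to 3.75 CPM (median 2.31 CPM) against 0.359 to 1.14 CPM (median 0.926 CPM) in cortex, with no overlap (log2FC 1.58, SE 0.35, FDR = 7.71e-05). LMX1A was called higher in HIP at a mean of only 0.124 CPM, that is at most 9 counts in an animal. LHX2 did not differ between these groups (log2FC 0.05, SE 0.35, FDR = 0.923).

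THA and HTHA are both divisions of the diencephalon, and 7 of 8 members were called between them, where 14.2% of all genes were called. LHX9 was the only one higher in THA (log2FC 3.10, SE 0.36, FDR = 2.67e-12), HTHA ranging from 0.9 to 7.85 CPM with a median of 6.64 CPM. ISL1 was at the floor in THA, and its HTHA mean was at least 47.3-fold that floor. LHX6 was lower in THA by a log2FC of −3.64 (SE 0.30, FDR = 1.03e-19) and LHX1 by −3.28 (SE 0.44, FDR = 7.94e-10). LHX8, LMX1A and LMX1B were at the floor in THA, with HTHA means at least 21.1-fold and 4.55-fold that floor for LHX8 and LMX1A, and below it for LMX1B. Without Rhesus 11 the bound for LHX8 was 4.19-fold. LHX2 was not called (log2FC 0.24, SE 0.40, FDR = 0.648). Without Rhesus 6, whose HTHA library is described next, it was called higher in THA (log2FC 1.12, FDR = 0.0131). The call of LMX1B was lost without Rhesus 7, Rhesus 8 or Rhesus 10 (FDR = 0.0834 to 0.314) and by DESeq2 (FDR = 0.0922).

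Single animals carried several HTHA values. LHX8 was at 35.7 CPM in Rhesus 11 and at most 3.97 CPM in the other 7, where the median was 0.472 CPM. LHX6 was at 44.7 CPM in the same library, and the cholinergic neuron list, which holds CHAT and SLC18A3, summed to 68.9 CPM there against 0.394 to 5.85 CPM in the others. Without Rhesus 11 the HTHA mean of LHX8 was 1.09 CPM, in place of 5.42 CPM, and that of LHX6 was 9.89 CPM, in place of 14.2 CPM. LHX6 was second highest in Rhesus 6 (22.7 CPM), and without both libraries its mean was 7.76 CPM and its log2FC −2.83 for THA over HTHA and 2.60 for HTHA over PIT.

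LHX2 was at 35.7 CPM in the HTHA library of Rhesus 6 and at most 5.37 CPM in the other 7, where the mean was 3.99 ± 0.984 CPM (SD, n = 7). SLC17A7, a transporter gene of cortical excitatory neurons, was at 478.9 CPM in that library and at most 5.17 CPM in the others. LHX9 (0.9 CPM) and ISL1 (5.70 CPM) were at their lowest in the same library. Without it the HTHA means were 13.05 CPM for ISL1 (12.1 CPM with it), 6.38 CPM for LHX9 (5.69 CPM), 13.04 CPM for LHX6 (14.2 CPM), 2.99 CPM for LHX1 (2.78 CPM), 1.33 CPM for LMX1A (1.17 CPM), 6.18 CPM for LHX8 (5.42 CPM) and 0.272 CPM for LMX1B (0.238 CPM). LHX2 was the 1 member whose mean moved by over 1.5 times. Without Rhesus 6, LHX2 was also the 1 member whose call changed between THA and HTHA or between HTHA and PIT. The part of other tissue in these values was not tested.

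**Figure D4:**
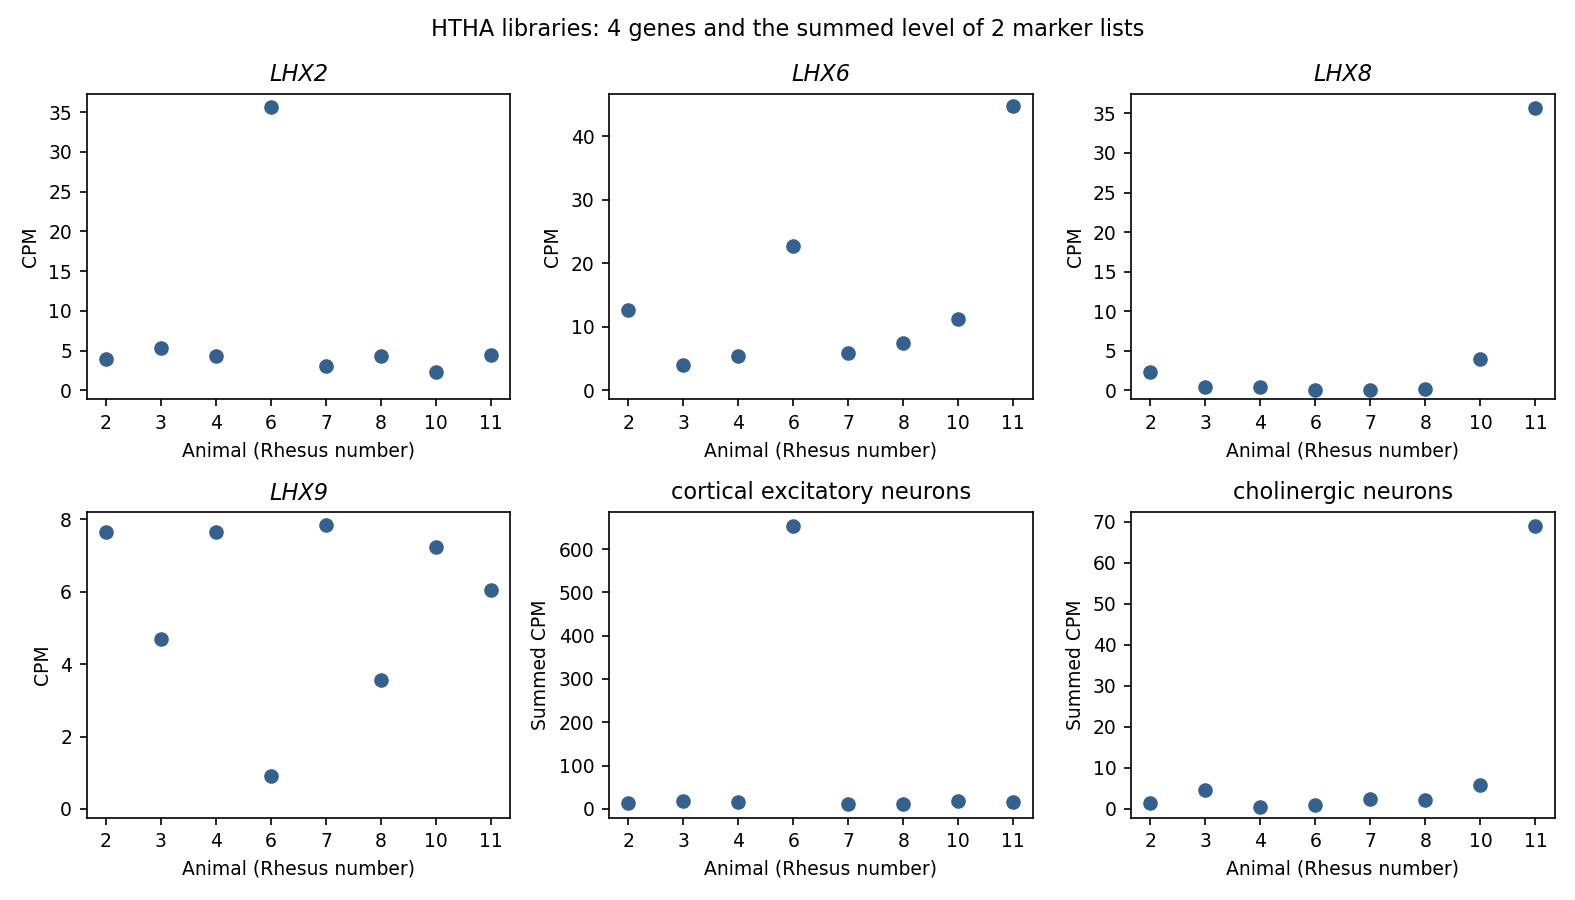
CPM of 4 genes and the summed CPM of the cortical excitatory neuron and cholinergic neuron lists (y axes) in the HTHA library of each of the 8 animals (x axes). Rhesus 6 stands apart in LHX2 and the cortical list, and Rhesus 11 in LHX6, LHX8 and the cholinergic list.

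HTHA and PIT differed in 6 of 8 members, where 37.7% of all genes were called. ISL1 was not called (log2FC 0.49, SE 0.34, FDR = 0.184), nor was LHX2 (log2FC −0.09, SE 0.41, FDR = 0.849). The LHX2 value rested on single libraries, with a log2FC of −1.12 without Rhesus 6 (FDR = 0.00731) and of 1.05 without Rhesus 8 (FDR = 0.0198). LHX6 (log2FC 3.37, SE 0.30, FDR = 3.51e-19) and LHX9 (4.90, SE 0.55, FDR = 8.03e-14) were higher in HTHA. LHX8 and LHX1 were at the floor in PIT, with HTHA means at least 20.3-fold and 10.4-fold that floor. Without Rhesus 11 the bound for LHX8 was 4.21-fold. LMX1B was also called higher in HTHA, on a mean below that of 3 counts. LMX1A was the exception, higher in PIT (log2FC of HTHA over PIT −2.16, SE 0.50, FDR = 6.23e-05).

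PON and MO, neighbours in the hindbrain, had 4 of 8 members called, all higher in MO, where 11.7% of all genes were called. LMX1B, LHX9 and ISL1 had no count in any PON library and LHX2 was at the floor there. The MO means were at least 6.67-fold the floor of 3 counts in PON for LMX1B, 2.94-fold for LHX9, 2.69-fold for LHX2 and 1.05-fold for ISL1. Without Rhesus 4 the MO mean of LMX1B was 0.782 CPM, at least 2.58-fold the floor. Rhesus 8 held 17 of the ISL1 counts in MO, and without it the ISL1 mean (0.157 CPM) lay below the floor of PON, with FDR = 0.0277. LHX1, at 1.29 to 3.50 CPM in PON (median 2.70 CPM) and 0.489 to 10.6 CPM in MO (median 2.33 CPM), did not differ (log2FC −0.19, SE 0.34, FDR = 0.677).

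Within STR, no member stood more than 2-fold above in a single sub-region, where 3.21% of all genes did. By the test over the 3 sub-regions alone (FDR < 0.05), which 57% of all genes passed, LHX6 and ISL1 differed. LHX6 ranged from 23.5 to 32.4 CPM in ACb (median 27.6 CPM), from 17.6 to 28.5 CPM in CN (median 24.7 CPM) and from 12.3 to 19.1 CPM in PUT (median 16.2 CPM), so ACb and PUT did not overlap (FDR = 1.19e-05). ISL1 followed the same order, with medians of 10.9, 9.54 and 7.07 CPM (FDR = 0.00323). LHX8 had its highest mean in PUT (11.0 ± 2.34 CPM, SD, n = 8) and its lowest in CN (7.33 ± 2.25 CPM), without passing the test (FDR = 0.0777).

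Within HIP, likewise, none of the members was called for a sub-region, where 0.683% of all genes were, and 2 passed the test over CA1, CA3 and DG, as did 32.7% of all genes. LHX6 was highest in CA1, at 10.4 to 19.7 CPM with a median of 14.9 CPM, and lowest in DG, at 5.31 to 11.3 CPM with a median of 8.07 CPM (FDR = 0.000965). LHX9 ran the other way, at 1.66 to 5.98 CPM in DG (median 3.70 CPM) and 0.998 to 3.57 CPM in CA1 (median 1.76 CPM, FDR = 0.0115). LHX2 was level across the 3 (FDR = 0.98).

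In CB, the only member tested was LHX1, which ranged from 15.5 to 36.7 CPM in CBC (median 31.1 CPM) and from 24.7 to 34.9 CPM in CBV (median 29.6 CPM). CBC and CBV did not differ (log2FC of CBV over CBC 0.05, SE 0.11, FDR = 0.809). Of all genes 0.225% were called between them and 0.842% passed the test.

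Across cortex, LHX2, LHX6 and LHX9 passed the filter on low counts, and all 3 differed over the 31 sub-regions (FDR = 3.19e-16, 4.36e-33 and 2.16e-37) and over the 5 lobes (FDR = 1.57e-05, 1.08e-07 and 7.83e-11). Of all genes, 75% passed over the sub-regions and 61.5% over the lobes. The size of the differences was unequal. From the lowest to the highest sub-region the fitted range was 0.68 on the log2 scale for LHX2, 0.74 for LHX6 and 4.98 for LHX9.

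LHX9 was highest in the parahippocampal gyrus (HG), at 2.09 to 5.37 CPM with a median of 2.92 CPM, followed by the fusiform gyrus (FG, median 2.14 CPM) and the lingual gyrus (LG, median 2.22 CPM). It was lowest in the posterior superior frontal gyrus (SFG), at 0 to 0.21 CPM with a median of 0.0929 CPM, so HG and SFG did not overlap. The last 3 of the 31 sub-regions by mean were SFG and the superior and inferior precentral gyri, all of the frontal lobe. By lobe, as the mean over its sub-regions in each animal, LHX9 was 1.67 ± 0.561 CPM in the limbic cortex, 1.07 ± 0.472 CPM in the temporal, 0.929 ± 0.346 CPM in the parietal, 0.772 ± 0.609 CPM in the occipital and 0.275 ± 0.124 CPM in the frontal lobe (SD, n = 8). The limbic lobe was itself uneven, as its anterior cingulate gyrus (ACG) stood in the lowest 4 of the 31 and HG, FG and LG in the highest 3.

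LHX6 was highest in ACG, at 35.4 to 46.7 CPM with a median of 38.5 CPM, and lowest in the posterior superior occipital gyrus (pSOG), at 18.8 to 32.5 CPM with a median of 23.5 CPM, without overlap. LHX2 was also highest in ACG, at 43.3 to 97.2 CPM with a median of 66.1 CPM, and lowest in the anterior superior occipital gyrus (aSOG), at 31.6 to 52.4 CPM with a median of 42.2 CPM. Both genes had their lowest lobe mean in the occipital lobe, 43.6 ± 4.31 CPM for LHX2 and 24.9 ± 4.47 CPM for LHX6, and their highest in the limbic cortex, 56.7 ± 10.0 CPM and 32.4 ± 2.94 CPM (SD, n = 8). ISL1, LHX1, LHX8, LMX1A and LMX1B did not pass the filter in cortex, and none exceeded a mean of 0.1 CPM in any of the 31 sub-regions.

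**Figure D5:**
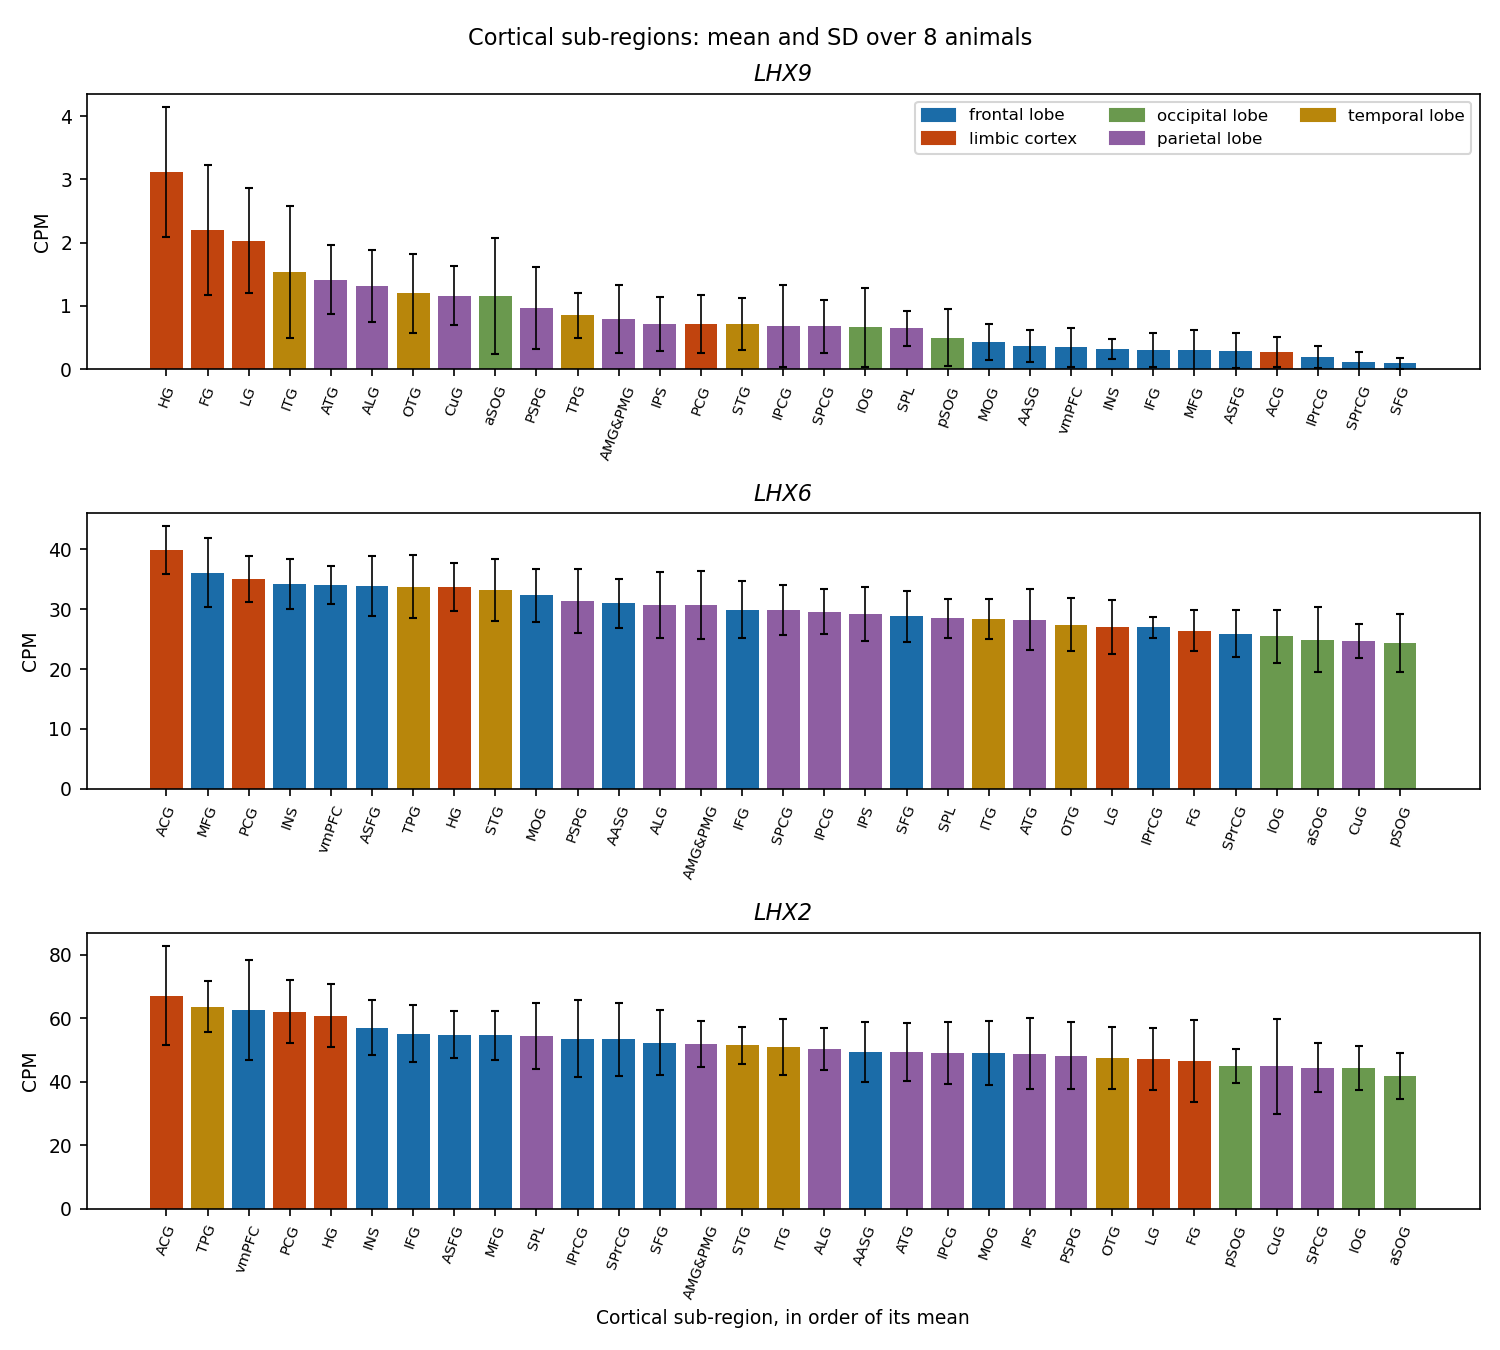
Mean CPM (bars) and SD over 8 animals (error lines) of LHX9, LHX6 and LHX2 in the 31 cortical sub-regions, ordered by mean and coloured by lobe. LHX9 falls from 3.12 CPM in HG to 0.0946 CPM in SFG, while LHX6 and LHX2 change little from one sub-region to the next.

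Age and sex were compared as 4 animals against 4 in each region group, each with the other as a covariate. No member was called in any of 55 pairs of member and region group for age, nor of 55 for sex, by edgeR's quasi-likelihood test at FDR < 0.1 and an absolute log2FC above 1. Of all pairs of gene and region group 0.0164% were called for age and 0.105% for sex. At an unadjusted p below 0.05 there were 4 pairs for age and 4 for sex, and the lowest FDR was 0.467 and 0.218, respectively. DESeq2 called 0 pairs for age and 1 for sex.

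LMX1A in HTHA had 1.26 to 3.77 CPM in the young (median 1.87 CPM) and 0 to 0.575 CPM in the mid-aged animals (median 0 CPM), without overlap, and did not pass (log2FC of mid-aged over young −3.89, SE 0.98, FDR = 1.0). Of the 4 mid-aged HTHA libraries, those of Rhesus 2, Rhesus 6 and Rhesus 11 had 0 counts of LMX1A. Those of Rhesus 6 and Rhesus 11 are the ones that stood apart in the cortical excitatory and cholinergic lists, and the highest LHX6 levels in HTHA were theirs. The library of Rhesus 2 stood apart in neither list. Without Rhesus 6 and without Rhesus 11 the log2FC was −3.48 and −3.40 for LMX1A, and 1.25 and 0.80 for LHX6 (1.19 with all animals). LHX9 in VTA had 1.53 to 8.56 CPM in the young (median 1.93 CPM) and 0 to 1.14 CPM in the mid-aged (median 0.335 CPM), again without overlap (log2FC −2.75, SE 0.85, FDR = 1.0). LHX2 in PIT had 0 to 42.5 CPM in males (median 13.4 CPM) and 0.107 to 3.17 CPM in females (median 0.327 CPM), with overlap (log2FC of females over males −4.37, SE 1.35, FDR = 0.218). This pair was called by DESeq2 (log2FC −5.03, FDR = 0.0691) and by edgeR without Rhesus 7 (log2FC −4.97, FDR = 0.0202). The remaining pairs at an unadjusted p below 0.05 were LHX6 in HTHA for both age and sex, LHX9 in HIP for age, and LHX9 in OB and PA for sex.

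The partners of these proteins were followed with a list of other LIM homeobox, LMO and adaptor genes, of which 11 of 12 had a row. LHX3, a pituitary transcription factor, was called for PIT, where it ranged from 152.9 to 373.3 CPM with a median of 178.5 CPM, against 0 to 1.77 CPM (median 0.224 CPM) in MO, the second group. LMO1 was called for HIP, at 29.9 to 45.7 CPM with a median of 37.1 CPM (log2FC over PIT 1.82, SE 0.19). The other 9 were called for none, where 11.5% of all genes were called for a region group. Among them LDB1, the shared adaptor, varied from a mean of 37.4 CPM in SN to 77.7 CPM in PIT. LDB2 was less even, from 5.10 ± 1.28 CPM in CB to 223.5 ± 27.8 CPM in cortex (SD, n = 8).

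Between the named pairs of tissues the list was called in 2 of 11 genes for SN and VTA (LMO3, log2FC 2.75, SE 0.20, and SSBP3, 1.08, SE 0.11, both higher in SN), where 5.91% of all genes were called. In GP against STR 4 of 11 were lower in GP, among them LDB2 (log2FC −3.36, SE 0.23) and SSBP4 (−2.54, SE 0.15), and none was higher. Of all genes 29.6% were called in that pair. LDB2 was higher in THA than in HTHA (log2FC 1.49, SE 0.21), with LMO3, LMO4 and SSBP4 lower, where 14.2% of all genes were called. The medians over the 11 genes were −0.02 in SN against VTA, −0.84 in GP against STR and −0.51 in THA against HTHA.

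The genes whose mean log2(CPM + 0.5) over the 16 region groups was most like that of a member are given with Pearson's r, as a description over 16 points that share their animals and libraries. For LMX1B they were SLC18A2, the vesicular monoamine transporter (r = 0.943), PAX8 (0.930) and PAX5 (0.927). For LHX2, ICAM5 (0.940) and SHISA7 (0.919) were among them. LHX9 was closest to CPNE7 (0.893), MS4A18 (0.889) and ADAMTSL1 (0.827), and LHX1 to UNCX (0.900), TRIM67 (0.877) and SHF (0.874). For LHX6 they were TAC3 (0.923), a tachykinin gene, DYDC2 (0.904) and CALHM2 (0.877), and for ISL1 the homeobox genes SIX3 (0.923) and NKX2-1 (0.811) with MYO3A (0.848). LHX8 was closest to KRT77 (0.850), MOSPD3 (0.822) and AMBN (0.821), and LMX1A to ZAR1 (0.876), DLK1 (0.859) and STYXL1 (0.857).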

How the data were processed

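RNA-seq of 8 animals was analysed, and 8 midbrain RNA-seq samples and 33 ATAC-seq samples were not used here. Per the study's methods and the submitters' processing notes, the authors used Trim Galore 0.4.4 on low-quality reads, HISAT2 2.0.5 for alignment to the Mmul 8.0.1 genome and HTSeq 0.6.1 for counting. The deposited values are raw read counts of genes, not normalized. The library kit keeps strand, but the strand option of the counting is not given in the sources used here, so genes that overlap, lie antisense or have close copies cannot be told apart with certainty. Symbols came from a reference table that named 17572 of 30807 genes.

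For each animal, the counts of a region group's sub-regions were added up. Tests were made in R 4.3.3 with edgeR 4.0.16 (filterByExpr, TMM, quasi-likelihood F test, Benjamini-Hochberg adjustment over all genes tested, given as FDR), with the animal as a block. The pairing comes from the animals themselves, as each gave every tissue. The call rules were FDR < 0.05 with a fold above 2, and for age and sex FDR < 0.1 with an absolute log2FC above 1 and the other factor as a covariate. The SE of a log2FC is its size divided by the square root of F. CPM use TMM-scaled library sizes. A fold against a group at the floor is the mean CPM of the other group over that of 3 counts per library, or per sum of an animal's libraries where sub-regions were added up. DESeq2 1.42.0 and the other alternatives are described in the closing section, and the procedure was tested on simulated data. Tables and figures were made with Python, numpy, pandas and matplotlib.

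The 10 genes, the lists of partner and marker genes, the pairs of tissues and the tests were chosen with earlier results of these data known. The genes named are the 10 members, the partner list, and for each member the 3 genes with a symbol of highest r, of which 1 is not reported here. The marker lists were choroid plexus, cortical excitatory, dopamine, serotonin, cholinergic, GABA and medium spiny neurons, Purkinje cells, thalamic neurons, habenula, hypothalamus, anterior pituitary and oligodendrocytes, of which 50 of 63 genes had a row. Each sample is from 1 animal. In a fit over region groups or sub-regions, the spread was estimated per gene over all groups of the fit, with the animal as a block. A p-value for a pair of groups thus does not measure the spread of the 8 animals in that pair alone. Age and sex were fitted within 1 region group at a time. The transcript assembly was not used.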

Additional observations from a re-analysis of the deposited data

Results flagged for a closer look

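In 53 sets of 8 animals, 1 gene in 1 region group with a mean of at least 1 CPM, the highest or lowest animal was set apart from the rest past the 95% critical value of Dixon's ratio in 11 sets, where chance gives about 1 in 20. In HTHA these were LHX2 in Rhesus 6 (35.7 CPM), and LHX8 (35.7 CPM) and LHX6 (44.7 CPM) in Rhesus 11. In MO they were LHX1 (10.6 CPM) and LMX1B (11.0 CPM) in Rhesus 4 and LHX6 in Rhesus 6 (2.45 CPM). The lowest animal stood apart for LHX1 in CB (Rhesus 4, 20.2 CPM) and for LHX9 in THA (Rhesus 8, 24.3 CPM). The others were LHX2 in GP of Rhesus 3 (6.08 CPM), LHX9 in VTA of Rhesus 7 (8.56 CPM) and LMX1A in SN of Rhesus 8 (9.33 CPM).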

How the results depend on the processing

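The calls of LHX1 for CB, LHX9 for THA and LMX1B for SN were unchanged with DESeq2, DESeq2 size factors, the detection rule of the study, no filter, a fold above 4, no replicate block (3 members called, as with it) and without each animal. Without Rhesus 4, LHX8 was called for STR as well (log2FC 1.23), and without Rhesus 8, LMX1A for PIT (1.47). Between the 8 pairs of tissues 37 of 64 tests were called, 1 of them with both groups at the floor, against 36 without the block and 33 to 38 when an animal was left out. LHX2 gained a call between SN and VTA with DESeq2 (log2FC −2.03, FDR = 0.0178) and between OB and cortex with that detection rule (−1.06). No member was called for age under any alternative. For sex, DESeq2 called 1, LHX2 in PIT, and leaving out each animal in turn gave 0 to 1 calls, that 1 without Rhesus 7. The means and the folds over the floor without 1 animal were also chosen after the data were seen. Leaving out HTHA of Rhesus 6 and Rhesus 11, chosen after the data were seen, gave 38 calls between pairs. All genes called for a region group rose from 1937 to 3160 with the detection rule of the study and 3184 with no filter, and numbered 589 at a fold above 4. With that detection rule 4 members passed over the cortical sub-regions, in place of 3. With a pseudocount of 0.1, 18 of 24 most similar genes stayed among the first 3 of their member. LMX1B was at the floor in 12 of 16 groups and LHX8 in 8, and their levels there rest on at most 3 counts in a library or sum of libraries.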
